A study of Mus musculus with 6 samples.

Results

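The genes described here are 10 members of 2 families of calcium-binding proteins in primary mouse microglia, namely *S100a1*, *S100a4*, *S100a6*, *S100a8*, *S100a9*, *S100a10*, *S100a11*, *Anxa1*, *Anxa2* and *Anxa5*. They are picked out of the tables by gene symbol, with no threshold on their values, and make up 10 of the 41079 genes in the count table, of which 9 had enough reads to be tested among 14618 tested genes. RNA came from microglia of C57Bl/6N mice whose brains were taken at 1 to 3 days of age. The microglia were shaken off mixed glial cultures that each held cells from several pooled brains and had received L-929 conditioned medium. Per the study's methods these mixed cultures were kept in medium with serum for weeks before the harvest. The harvested cells also attached to the wells in medium with serum, which was then replaced. In the control group (n = 3 libraries) these cells were kept in serum-free DMEM/F12 with gentamicin. The optimized group (n = 3 libraries) had the same medium with human TGFbeta, human IL34 and CX3CL1 at 100 ng/mL each, and per the study's methods also cholesterol, an insulin-transferrin-selenium solution and wells coated with collagen IV. The agents were given together, so the share of any single agent in a difference cannot be told apart, and the cells carried no transgene. The comparison asks how RNA levels of these genes differ between plain serum-free culture and culture with cues of the brain environment.

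S100 proteins are small EF-hand proteins found only in vertebrates, which change shape when they bind calcium and then attach to target proteins. Annexins bind phospholipid membranes in the presence of calcium, and several annexins carry an S100 dimer on their N-terminal tail, as in the complexes of ANXA2 with S100A10 and of ANXA1 with S100A11. In phagocytes these proteins take part in membrane repair, vesicle traffic and cell movement, and S100A8 and S100A9 are secreted together as an alarm signal of myeloid cells.

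Total counts ran from 20628148 to 27261839 per library, and replicates differed by 10.8 to 79.9 in chi-square per degree of freedom, so none was a copy of another. The microglial label fitted the markers, as *Tmem119*, *Cx3cr1*, *P2ry12* and *Itgam* were expressed and higher under optimized conditions and *Csf1r* and *Aif1* were expressed and lower. Of the neuron markers only *Nefl* was called (log2 fold change 2.30), with a sum over 6 markers of 3.07 to 4.72 CPM in controls and 5.30 to 6.34 CPM in the optimized group. *Nefl* had 4 to 7 reads in controls and 19 to 35 in the optimized libraries. It passed the filter on low counts only through the latter, where it is high, so its test values are a description. Of the 6 oligodendrocyte markers only *Mbp* was called (0.34), with sums of 135 to 151 and 164 to 202 CPM. Optimized library 1 stood apart from its replicates, for it held 1534 reads of *Ltf* against 1 to 3 in every other library, so the tests were repeated without it. Expression is given as CPM, the reads of a gene scaled to a common library size, with libraries adjusted by the trimmed mean of M-values (TMM), and differences as log2 fold changes of optimized over control with their standard errors (SE). A gene was called at a Benjamini-Hochberg adjusted p-value under 0.05 in edgeR's quasi-likelihood test. The study calls the 3 libraries per group biological replicates, the sample labels do not say whether each came from its own mixed glial culture, and the p-values measure the spread between these samples.

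More of these genes were lower than higher under optimized conditions, and the 3 annexins carried most of their RNA. Of the 9 tested genes, 5 fell (*Anxa1*, *Anxa5*, *S100a4*, *S100a6* and *S100a10*), where 15.2% of all tested genes were called lower. *S100a8* alone rose, where 14.7% of all tested genes were called higher, and *Anxa2*, *S100a1* and *S100a11* were not called. The median log2 fold change of the 9 tested genes was -0.46, beside 0.0079 over all tested genes. *S100a8* passed the filter on low counts only through the optimized libraries, where it is high. Its part in the median and in all counts of this paragraph, those at the study's cut-off included, is thus a description. *S100a9* did not pass the filter. In CPM the groups did not overlap for 6 genes that were lower in the optimized libraries, a pattern found for 22.5% of all tested genes, and for 2 that were higher (*S100a8* and *S100a11*), found for 21.4%. At the study's own cut-off of 1.5 or more in log2 size with an unadjusted p-value under 0.01, *Anxa1* was the only 1 of the 9 lower, against 2.53% of all tested genes, and *S100a8* the only 1 higher, against 3.1%. The RNA of a culture reflects all its cells, so fewer cells of a type and less RNA per cell cannot be told apart in any of these values.

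**Figure D1:**
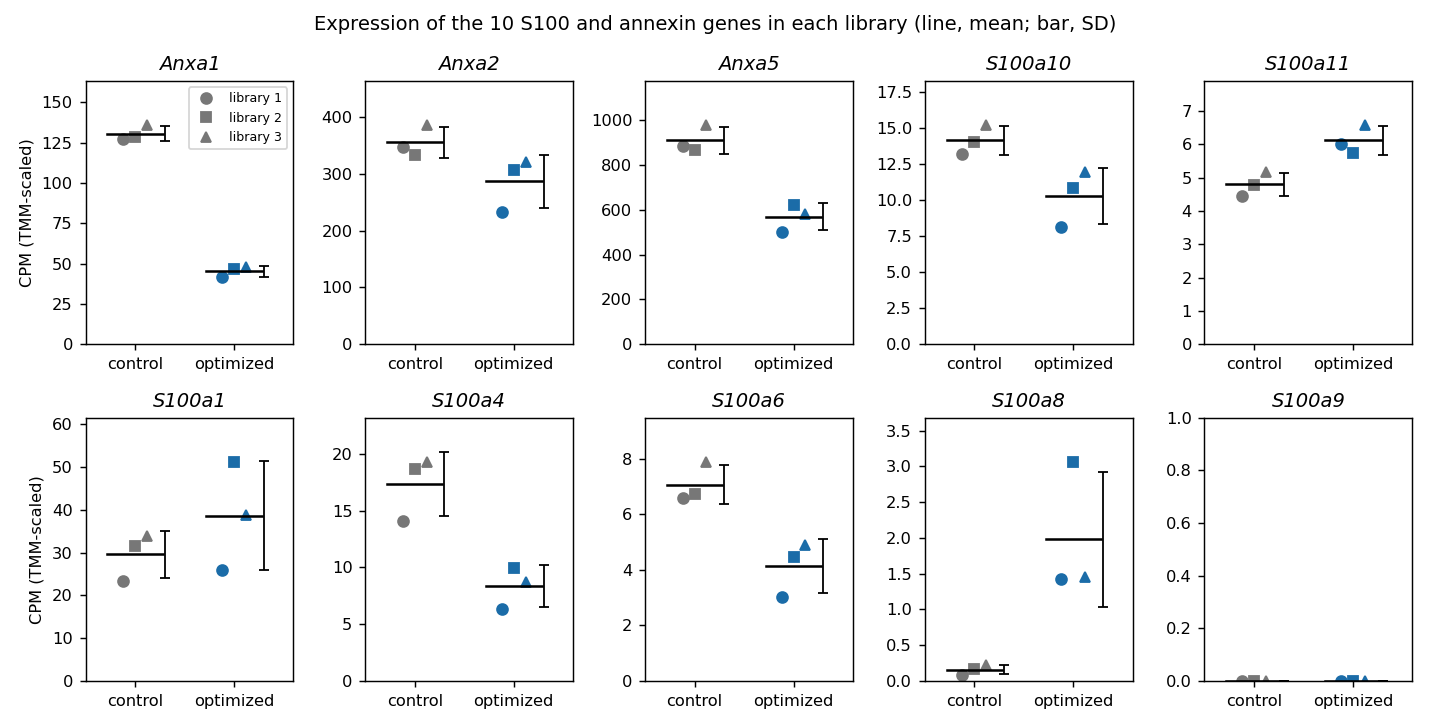
CPM after TMM scaling (y axis, linear, each panel on its own scale from 0) of the 10 genes in the 3 control (grey) and 3 optimized (blue) libraries, with horizontal lines for group means and bars for 1 SD. Anxa1, Anxa2, Anxa5, S100a4, S100a6 and S100a10 lie lower in all optimized libraries than in any control library, S100a8 and S100a11 lie higher, S100a1 overlaps and S100a9 is at 0 throughout.

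*Anxa1* encodes one of the proteins through which glucocorticoids dampen inflammation, and its N-terminal part is a ligand of formyl peptide receptors. The gene lies on the minus strand of GRCm39 at chr19:20350792-20368374. Its level was 127, 128 and 136 CPM in control libraries 1 to 3 and 41.4, 46.5 and 47.9 CPM in optimized libraries 1 to 3. All control values were thus above all optimized values, and the gap was wider than the spread within either group. The mean went from 130.55 ± 4.74 (SD, n = 3) to 45.3 ± 3.42 CPM (SD, n = 3), a 2.88-fold decrease. The log2 fold change was -1.53 (SE 0.089, adjusted p = 1.3e-06, edgeR quasi-likelihood test), the largest decrease among the 9 tested genes. Without optimized library 1 it was -1.47, still called but short of the study's cut-off. The 250 bases in front of the RefSeq start of *Anxa1* (GRCm38.p6, minus strand, chr19:20390672-20390921) are shown because this gene had the largest decrease, with capitals marking a TATAAA box from 32 to 27 bases before the start and a match to TTGCNNAA, a C/EBP-type motif, on the other strand from 143 to 136 bases before it.

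Anxa1: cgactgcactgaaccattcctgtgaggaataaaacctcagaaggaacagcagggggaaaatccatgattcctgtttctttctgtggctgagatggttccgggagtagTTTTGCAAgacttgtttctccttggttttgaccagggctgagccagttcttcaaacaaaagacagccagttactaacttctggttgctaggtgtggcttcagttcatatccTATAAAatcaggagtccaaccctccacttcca

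*Anxa5* encodes annexin A5, which covers phosphatidylserine on the outer face of dying cells and is known from its use as an apoptosis stain. It lies at chr3:36503072-36530126 on the minus strand of GRCm39 and had more RNA than any other of the 10 genes. Control libraries 1 to 3 held 885, 866 and 978 CPM of *Anxa5*, and the optimized libraries 502, 620 and 583 CPM. The groups were separate, with mean levels of 910 ± 60.1 and 568 ± 60.5 CPM (SD, n = 3 each). *Anxa5* fell by 0.68 on the log2 scale (SE 0.11, adjusted p = 9.0e-04, edgeR quasi-likelihood test), and by 0.60 without optimized library 1, where it was still called.

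*Anxa2* encodes annexin A2, which binds actin and membranes and, as a complex with S100A10, holds plasminogen at the cell surface. It lies at chr9:69360542-69399077 on the plus strand of GRCm39. Its levels were 347, 333 and 386 CPM in controls and 233, 307 and 321 CPM under optimized conditions. The groups did not overlap, but optimized libraries 2 and 3 came close to control library 2. With means of 355 ± 27.6 and 287 ± 47.2 CPM (SD, n = 3 each), the log2 fold change of -0.31 (SE 0.13) was not called (adjusted p = 0.096, edgeR quasi-likelihood test). Without optimized library 1, the lowest of the 6, it was -0.18 (adjusted p = 0.12, edgeR). Scaling by library size alone gave -0.44 (adjusted p = 0.0089, the same test), under which the median of all tested genes was itself shifted to -0.12.

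*S100a10* encodes the S100 partner of annexin A2, an S100 protein that no longer needs calcium to take its binding form. The gene is at chr3:93462213-93474510 on the plus strand of GRCm39. It was at 13.2, 14.03 and 15.2 CPM in controls and at 8.1, 10.8 and 11.9 CPM under optimized conditions. Every optimized value lay below every control value, and optimized library 1 was the lowest. From a mean of 14.1 ± 1.02 CPM *S100a10* dropped to 10.3 ± 1.96 CPM (SD, n = 3 each), which is -0.46 on the log2 scale (SE 0.15, adjusted p = 0.043, edgeR quasi-likelihood test). This call did not hold when optimized library 1 (log2 fold change -0.32, adjusted p = 0.057), control library 1 (-0.51, 0.075), control library 2 (-0.47, 0.11) or control library 3 (-0.41, 0.14) was left out of that test.

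Since both partners of the complex were measured, their balance could be read within each library. *S100a10* reads equalled 3.79, 4.21 and 3.93% of *Anxa2* reads in controls and 3.48, 3.52 and 3.71% under optimized conditions. The share was lower in all 3 optimized libraries, by a small margin. The log2 ratio was -4.65 ± 0.077 in controls and -4.81 ± 0.050 in the optimized group (SD, n = 3 each), a difference of -0.16 with p = 0.1 by exact permutation, two-sided, which is the lowest p that 20 arrangements of 3 against 3 libraries can give. These are ratios of read counts and not per length, so they do not give the molar balance of the RNAs.

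*S100a11* encodes a partner of annexin A1 with roles in membrane repair and cell growth, and lies at chr3:93414382-93435293 on the plus strand of GRCm39, next to *S100a10* among the S100 genes of the chromosome. Unlike *S100a10*, it was higher in the optimized libraries, with 6.01, 5.75 and 6.58 CPM against 4.46, 4.77 and 5.16 CPM in the controls. The groups did not overlap, yet the difference was small. Its log2 fold change of 0.35 (SE 0.15) was not called (adjusted p = 0.11, edgeR quasi-likelihood test), and was 0.36 without optimized library 1.

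*S100a4* encodes a protein that binds non-muscle myosin IIA and promotes cell movement. It lies at chr3:90511074-90513354 on the plus strand of GRCm39, within the dense S100 cluster. Levels were 14.1, 18.7 and 19.3 CPM in controls and 6.34, 9.96 and 8.76 CPM under optimized conditions. The highest optimized value was below the lowest control value, and library 1 was the lowest of its group on both sides. *S100a4* fell 2.08-fold, the means being 17.4 ± 2.84 CPM and 8.35 ± 1.84 CPM (SD, n = 3 each). On the log2 scale this is -1.06 (SE 0.18, adjusted p = 0.0016, edgeR quasi-likelihood test). It was called under all 17 settings tried, and its log2 fold change was -0.89 without optimized library 1. The 250 bases before its RefSeq start (GRCm38.p6, plus strand, chr3:90603520-90603769) are shown because *S100a4* had the largest decrease among the S100 genes, and the capitals mark a TATAAA box 31 to 26 bases before the start.

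S100a4: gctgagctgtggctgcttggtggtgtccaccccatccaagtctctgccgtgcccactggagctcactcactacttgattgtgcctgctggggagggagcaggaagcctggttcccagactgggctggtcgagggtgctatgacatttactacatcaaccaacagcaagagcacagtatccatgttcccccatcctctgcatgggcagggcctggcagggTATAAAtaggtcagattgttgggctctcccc

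*S100a6* encodes calcyclin, an S100 protein that binds several annexins and the calcyclin-binding protein CACYBP, and lies at chr3:90520140-90535843 on the plus strand of GRCm39, close behind *S100a4*. Control libraries held 6.6, 6.73 and 7.91 CPM and optimized libraries 3.03, 4.47 and 4.89 CPM, again without overlap. Mean *S100a6* levels were 7.08 ± 0.72 and 4.13 ± 0.97 CPM (SD, n = 3 each), and the gene fell by 0.78 on the log2 scale (SE 0.19, adjusted p = 0.013, edgeR quasi-likelihood test). The value was -0.60 without optimized library 1, where the call held, and -0.70 without control library 3, where it did not (adjusted p = 0.056, edgeR). Fibroblasts express *S100a4* and *S100a6* strongly, and the summed level of 6 fibroblast marker genes was 34.5 to 48.8 CPM in controls and 31.0 to 151 CPM in the optimized libraries, highest in optimized library 3. In edgeR 0 of the 6 fibroblast markers were called (1 had an unadjusted p-value under 0.05), as in DESeq2 and limma, but without optimized library 1 *Col1a1* and *Col1a2* were called higher. The part of fibroblasts in these results was not tested.

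*S100a1* encodes a protein best known from heart muscle, where it acts on calcium release, and is also found in glial cells. It lies on the minus strand of GRCm39 at chr3:90418340-90421848. Its level was 23.3, 31.6 and 33.8 CPM in control and 25.9, 51.3 and 38.8 CPM in optimized libraries 1 to 3. Here the groups overlapped, and optimized library 1 was below 2 of the control libraries. The log2 fold change of 0.39 (SE 0.22) was not called (adjusted p = 0.24, edgeR quasi-likelihood test). Optimized libraries 1 and 2 decided this value, since without library 1 it was 0.61 and called (adjusted p = 0.0040) and without library 2 it was 0.11 (adjusted p = 0.69) in the same test.

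The reads of *S100a1* may be hard to separate from those of *S100a13*, another S100 gene. In GENCODE the exons of these genes share 2563 bases on opposite strands. Whether the counting used strand is not given in the sources used here. The FPKM values imply 635 bases for *S100a1* and 945 for *S100a13*, where the GENCODE exons span 2895 and 4708. How far the gene models used for counting overlap is thus not known. Reads of *S100a1* equalled 93.0, 98.9 and 101% of those of *S100a13* in controls and 122, 116 and 116% in the optimized libraries. With the reads of both summed as 1 gene, an alternative chosen after seeing the data, the log2 fold change was 0.26 (SE 0.22, adjusted p = 0.43, edgeR). In RefSeq the 2 genes start back to back with 104 bases between their starts (GRCm38.p6, chr3:90514331-90514434). The stretch between them is shown on the plus strand, the strand of *S100a13*, because it belongs to both upstream regions, and it held 0 matches to the motifs searched.

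S100a1/S100a13: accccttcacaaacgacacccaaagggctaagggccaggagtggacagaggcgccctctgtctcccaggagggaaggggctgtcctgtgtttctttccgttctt

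*S100a8* and *S100a9* encode the subunits of calprotectin, a protein that makes up a large part of the cytosol of neutrophils. *S100a8* lies at chr3:90567118-90578128 on the plus strand and *S100a9* at chr3:90599931-90603071 on the minus strand of GRCm39. *S100a8* had 2, 4 and 6 reads in controls and 30, 72 and 30 reads under optimized conditions. Each optimized library had more *S100a8* reads than any control library, and optimized library 2 had the most. In CPM these are 0.0874, 0.163 and 0.220 against 1.42, 3.07 and 1.45. *S100a8* rose with a log2 fold change of 3.59 (SE 0.50, adjusted p = 3.9e-04, edgeR quasi-likelihood test), and was called when any single library was left out (3.79 without optimized library 1). Since the filter admitted *S100a8* only through the group where it is high, these test values are a description. In the fit with no filter on low counts its log2 fold change was 3.58 (adjusted p = 4.3e-06, edgeR), which rests on the same few control reads. The summed reads were 12 in the control group and 132 in the optimized group, a ratio of 12.6 after scaling, with an exact 95% interval of 6.97 to 25.0 that covers counting error only.

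*S100a9* was listed at 0 reads in all 6 libraries, so its transcript was not detected beside that of *S100a8*. A count of 0 allows up to 3 reads, which corresponds to 0.11 to 0.145 CPM of *S100a9* in these libraries. The level of *S100a8* in the optimized libraries was above that limit throughout. Of 8 neutrophil marker genes, *Ly6g*, *Mpo* and *Elane* were at 0 in every library, *Retnlg* had at most 1 read and *Camp* and *Cxcr2* at most 5 reads. *Ltf*, also on this list, had 1 to 3 reads in 5 libraries but 1534 reads, or 72.6 CPM, in optimized library 1, where the summed level was highest. The summed level of the 8 markers was 199.6 to 224 CPM in controls and 199 to 305 CPM in the optimized libraries. Most of this sum came from *Csf3r*, a receptor gene that microglia also express, with means of 214 ± 12.6 and 211 ± 18.4 CPM (SD, n = 3 each). Of 5 monocyte markers, *Chil3* was at 0 and *F13a1* rose with a log2 fold change of 1.601 (adjusted p = 7.6e-06, edgeR). The sum of the list was 6.43 to 7.67 CPM in controls and 18.9 to 23.4 CPM in the optimized libraries. Most of that sum came from *F13a1*, with means of 6.14 ± 0.76 and 18.6 ± 0.51 CPM (SD, n = 3 each). *Ccr2* was not called (log2 fold change 0.29, adjusted p = 0.71, edgeR), and its log2 fold change was -0.402 without optimized library 1. *Ly6c2* had at most 4 reads in any library. *Plac8* had 54 reads in optimized library 1 and 0 to 1 in the others. The part of monocytes in the *S100a8* result was not tested.

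The upstream sequences of *S100a8* and *S100a9* are shown together because these neighbours encode partners but differed in these libraries. The windows are the 250 bases before each RefSeq start in GRCm38.p6, chr3:90668821-90669070 on the plus strand for *S100a8* and chr3:90695722-90695971 on the minus strand for *S100a9*. In *S100a8* the capitals mark, in order, a match to the SMAD element CAGACA on the other strand, a match to the PU.1-type motif GAGGAAG on the other strand, and a TATAAA box 30 to 25 bases before the start. In *S100a9* they mark a match to TTGCNNAA and a GC box, GGGCGG.

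S100a8: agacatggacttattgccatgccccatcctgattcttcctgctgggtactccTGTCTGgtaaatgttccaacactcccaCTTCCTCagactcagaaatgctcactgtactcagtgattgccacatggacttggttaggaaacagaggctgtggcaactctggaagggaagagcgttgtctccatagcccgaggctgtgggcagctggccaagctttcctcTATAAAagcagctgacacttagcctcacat

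S100a9: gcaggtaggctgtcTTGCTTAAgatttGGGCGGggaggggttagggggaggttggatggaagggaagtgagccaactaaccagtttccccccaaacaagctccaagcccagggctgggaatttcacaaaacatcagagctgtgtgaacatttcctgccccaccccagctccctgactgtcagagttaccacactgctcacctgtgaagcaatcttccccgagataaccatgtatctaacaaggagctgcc

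Upstream windows were found in the RefSeq table for 9 of the 10 genes, the exception being *S100a10*. Both strands of each 250-base window were searched, with letters as printed, and no matches within a window overlapped. TATAAA was present in 4 of the 9 windows (*S100a4*, *S100a8*, *Anxa1* and *Anxa2*), where 12.4% of 32851 windows of the same length in the table held it. GGGCGG was present in 3 (*S100a9*, *S100a11* and *Anxa2*), beside 32.7% of all windows, and the AP-1 site TGANTCA in 2 (*S100a11* and *Anxa2*), beside 6.75%. CAGACA, with 17.1% of all windows, and GAGGAAG, with 10.6%, each had a match in *S100a8* only among the 9. TTGCNNAA, with 9.56%, matched in *S100a9* and *Anxa1*, and CCAAT, with 33.8%, on the other strand in *S100a6*. The cyclic AMP element TGACGTCA, the E2F site TTTCCCGC and the core of the interferon-stimulated response element had no match in these 9 windows, beside 1.55, 0.895 and 2.98% of all windows. A match describes letters in a window and was not tested for binding or for a part in the RNA changes.

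To compare levels between genes, FPKM values, which are scaled by gene length, were used. In all 3 control libraries *Anxa5* led in FPKM, followed by *Anxa2*, *Anxa1*, *S100a1*, *S100a4*, *S100a10*, *S100a11*, *S100a6*, *S100a8* and *S100a9*. Mean FPKM in controls was 535 ± 15.4 for *Anxa5*, 251 ± 10.3 for *Anxa2*, 95.01 ± 0.61 for *Anxa1* and 48.7 ± 8.18 for *S100a1* (SD, n = 3 each), so these neighbours were apart by more than their spread. The next were *S100a4* with 29.1 ± 4.32 and *S100a10* with 22.1 ± 0.96 FPKM in controls, whose ranges did not overlap but lay close together. In the optimized libraries *S100a1* (57.5 ± 16.7 FPKM) stood above *Anxa1* (29.9 ± 1.98 FPKM) and *S100a10* (14.5 ± 2.62 FPKM) above *S100a4* (12.7 ± 2.36 FPKM) in every library. The gap between *S100a10* and *S100a4* was within their spread, with 14.6 and 14.5 FPKM in optimized library 2. *S100a4* did not differ from *S100a11* (11.2 ± 1.10 FPKM) beyond the spread of these values, as *S100a11* was the higher in optimized library 1 and the lower in the others. *S100a8* (4.598 ± 1.97 FPKM) was above *S100a6* (2.46 ± 0.55 FPKM) in every optimized library. This order rests on the gene lengths behind the FPKM values, and for *S100a10* the length they imply is 672 bases where the GENCODE exons span 6944. The gap was unequal between genes. It was 635 against 2895 bases for *S100a1* and 1441 against 3126 for *Anxa1*. For *S100a8* it was 405 against 985 and for *S100a6* 1595 against 2352. The level of *S100a1* may also include reads of *S100a13*.

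The families were then set against their remaining genes. Among 12 annexin genes, 9 were tested, of which 7 fell and 0 rose at an adjusted p-value under 0.05, where 15.2% of all tested genes were called lower and 14.7% higher, and 8 had a log2 fold change below 0, with a median of -0.53 beside 0.0079 over all tested genes. DESeq2 and limma also called 0 annexins higher, and *Anxa3* alone was higher at an unadjusted p-value under 0.05 in edgeR. Of 18 S100 genes 9 were tested, of which 3 fell and 1 rose (*S100a8*, as a description), with a median of 0.25. The S100 counts and median changed with single libraries, as 1 gene was called lower without control library 3, 2 without control library 1, control library 2 or optimized library 1, and 3 were called higher without optimized library 1, while the median was 0.018 without control library 1 and 0.0053 without optimized library 2. *S100a2*, *S100a5*, *S100a7l2* and *S100z* were at 0 in all libraries. With library size alone as the scaling, 8 annexins were called lower and the S100 median was 0.12. The number of annexins called lower was 6 without control library 2 and 7 without optimized library 1.

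Among the other annexins, the 3 largest decreases were those of *Anxa4*, *Anxa11* and *Anxa7* and the smaller ones those of *Anxa6* and *Anxa9*. *Anxa4*, an annexin of secretory epithelia and vesicle membranes, had 387, 419 and 427 CPM in controls and 183, 196 and 203 CPM under optimized conditions. *Anxa4* was lower in every optimized library, with a log2 fold change of -1.08 (SE 0.086, adjusted p = 9.7e-06, edgeR quasi-likelihood test) and of -1.04 without optimized library 1. The log2 fold changes of *Anxa11* (-0.58, adjusted p = 0.0043), *Anxa7* (-0.53, 0.0020), *Anxa6* (-0.49, 0.0021) and *Anxa9* (-0.47, 0.014) in that test were smaller. *Anxa9* is uncertain, as its exons share 879 bases with *Mindy1* on the other strand, which had 6.82 times its reads, and it was not called without control library 2. *Anxa3* was the exception, named here after its values were seen, with 259, 275 and 289 CPM in the controls and 296, 320 and 329 CPM in the optimized libraries. These groups did not overlap, and the log2 fold change of *Anxa3* was 0.20 (SE 0.086, adjusted p = 0.12, edgeR), and of all settings tried only the omission of optimized library 1 gave a call (0.24, adjusted p = 0.028).

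**Figure D2:**
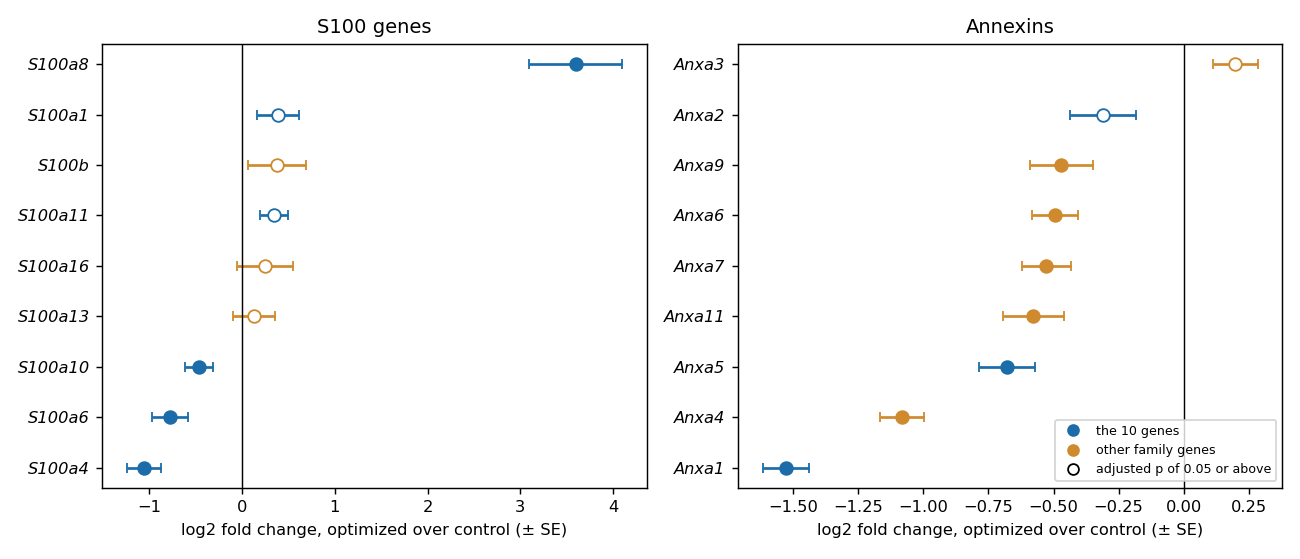
Log2 fold changes (x axis, optimized over control, bars for 1 SE) of the 9 tested S100 genes (left) and the 9 tested annexins (right), on separate axes. Blue points are genes of the 10 described here, orange points other genes of the families, and open points have an adjusted p-value of 0.05 or above; 8 of 9 annexins lie left of 0.

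The make-up of the annexin RNA was then read from FPKM. Summed over 12 annexins, FPKM was 1181.5, 1174 and 1226 in controls and 682, 762 and 799 in the optimized libraries. The optimized sums were all below the control sums. FPKM values do not carry the TMM scaling. In limma the median over all tested genes was itself -0.087 on log2(FPKM + 1) and -0.13 on log2(FPKM + 0.1). The fall of the sums is thus larger than it would be on the TMM scale. *Anxa5* made up 44.8% of this sum on average in controls and 40.6% in the optimized libraries, *Anxa2* 21.0 and 24.5%, *Anxa3* 9.44 and 15.7%, and *Anxa1* 7.96 and 4.01%. The shares of *Anxa1* were 3.85 to 4.15% in the optimized and 7.74 to 8.15% in the control libraries, and those of *Anxa3* 14.9 to 16.7% and 9.19 to 9.85%. Neither range overlapped between groups, while the mean share of *Anxa7* was 5.48 and 5.53%. Shares of a sum are tied to each other, so they were given no test.

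**Figure D3:**
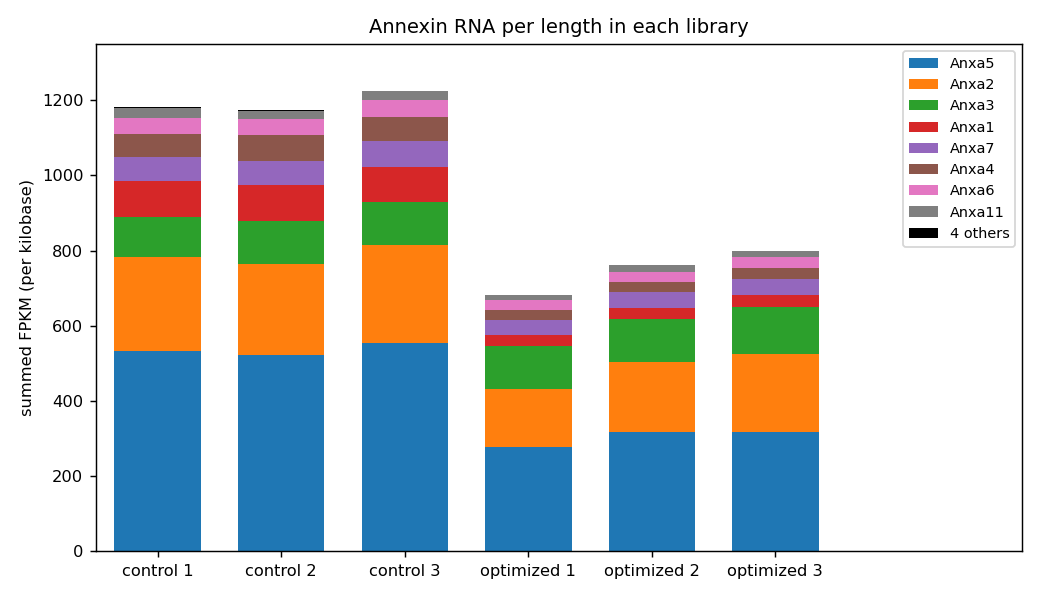
Summed FPKM of 12 annexin genes (y axis, from 0) in each of the 6 libraries, with 1 stacked segment per gene and the 4 least abundant genes together. The control bars reach 1174 to 1226 and the optimized bars 682 to 799, with a smaller Anxa1 segment and an Anxa3 segment of similar height. FPKM values do not carry the TMM scaling, under which Anxa3 was higher in all optimized libraries.

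Of the 3 other S100 genes tested 0 were called in edgeR, DESeq2 or limma, and 0 had an unadjusted p-value under 0.05, with all 6 libraries in the test. *S100b*, the classical astrocyte S100 gene, had 1.399, 1.22 and 1.43 CPM in controls and 1.37, 2.51 and 1.35 CPM under optimized conditions. Only optimized library 2 stood out, and the log2 fold change of *S100b* was 0.38 (SE 0.32, adjusted p = 0.42, edgeR quasi-likelihood test), or 0.53 (adjusted p = 0.25) without optimized library 1. The summed level of 6 astrocyte markers was 35.7 to 37.7 CPM in controls and 24.1 to 29.2 CPM in the optimized libraries, and of these 6 only *Aldh1l1* was called (log2 fold change -1.83). The lower sum came mainly from *Aldh1l1*, with means of 16.5 ± 1.47 and 4.64 ± 0.23 CPM (SD, n = 3 each). *Gja1* lay higher (0.49) and *Slc1a3* lower (-0.51) in all optimized libraries, neither of them called. The part of astrocytes in these values was not tested. *S100a13* (0.13, adjusted p = 0.73) and *S100a16* (0.25, adjusted p = 0.59), named as the remaining tested S100 genes, were not called in the edgeR test with all libraries. Without optimized library 1 *S100a13* was called higher in edgeR (0.36, adjusted p = 0.046), and its log2 fold change ran from -0.15 to 0.36 over all settings, so no direction is given for it.

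Genes for receptors and binding partners of these proteins were listed next, and 15 of the 17 were tested, with 4 lower and 3 higher, beside 15.2 and 14.7% of all tested genes, and a median log2 fold change of -7.3e-04. The counts were the same without optimized library 1. The 2 formyl peptide receptor genes of the annexin A1 pathway had larger log2 fold changes than *Anxa1* itself. *Fpr2* was at 10.7, 11.4 and 12.3 CPM in controls and at 0.0947, 0.213 and 0.242 CPM under optimized conditions, the latter from 2 to 5 reads each. *Fpr2* was thus near its detection limit in every optimized library, with a log2 fold change of -5.92 (SE 0.25, adjusted p = 1.8e-07, edgeR quasi-likelihood test). *Fpr1* went from 10.8, 10.3 and 13.5 CPM in the controls to 1.56, 1.28 and 1.26 CPM in the optimized libraries, a log2 fold change of -3.07 (SE 0.19, adjusted p = 1.6e-06, edgeR). Without optimized library 1 the values were -5.63 for *Fpr2* and -3.18 for *Fpr1*, and *Fpr3* was at 0 in all libraries. *Fpr1* was called in all 17 settings and *Fpr2* in the 16 that tested it. *Fpr2* passed the filter on low counts only through the controls, where it is high, so its test values are a description. The setting with at least 10 reads in every library left *Fpr2* out.

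Receptors of secreted S100 proteins did not move together. *Tlr4*, which encodes a receptor of S100A8 and of bacterial lipopolysaccharide, fell from 94.9, 97.7 and 89.4 CPM to 54.4, 45.2 and 53.2 CPM. These groups were well apart, and the log2 fold change of *Tlr4* was -0.88 (SE 0.095, adjusted p = 7.7e-05, edgeR quasi-likelihood test), or -0.93 without optimized library 1. *Ager*, the gene of the receptor RAGE, was at 1.21 to 2.71 CPM in controls and at 1.21 to 3.08 CPM in the optimized libraries (log2 fold change 0.32, adjusted p = 0.62, edgeR), and its log2 fold change was -0.017 without optimized library 1. *Bsg*, which encodes basigin, a surface protein that binds S100A9, rose with a log2 fold change of 0.81 (adjusted p = 0.0027, edgeR), or 0.97 without optimized library 1.

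Of the remaining partners, *Ahnak*, whose large product binds the ANXA2 and S100A10 complex, fell by 0.89 on the log2 scale (adjusted p = 0.010, edgeR quasi-likelihood test), and by 1.19 without optimized library 1. *Plgrkt*, the gene of a plasminogen receptor at the cell surface, rose by 0.71 (adjusted p = 2.5e-04, edgeR), and shares 219 exon bases with *Cd274* on the other strand. *Myh9*, the heavy chain of non-muscle myosin IIA and the target of S100A4, rose by 0.71 (adjusted p = 0.0071, edgeR) from 286 to 396 CPM in controls to 453 to 661 CPM in the optimized libraries, while *S100a4* itself fell. *Myh9* was not called by limma on FPKM. The gene of plasminogen, *Plg*, was at 0 in all libraries.

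**Figure D4:**
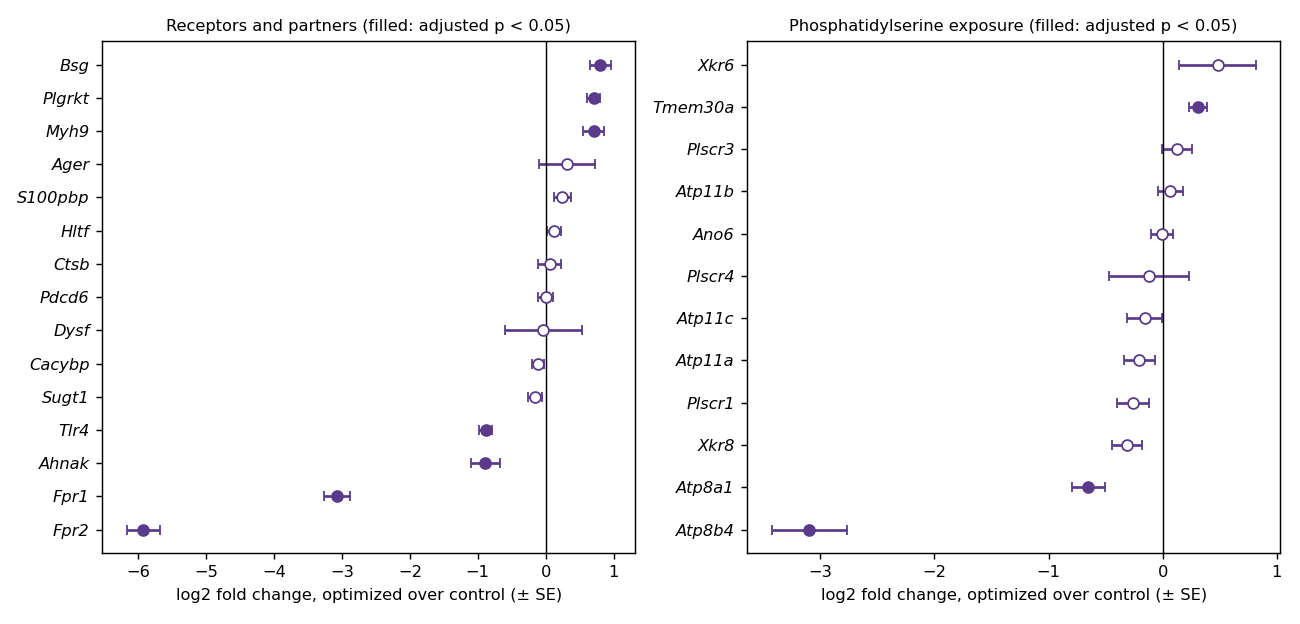
Log2 fold changes (x axis, optimized over control, bars for 1 SE) of 15 tested receptor and partner genes (left) and 12 tested genes of phosphatidylserine exposure (right), with filled points for an adjusted p-value under 0.05. Fpr2 (-5.92), Fpr1 (-3.07) and Atp8b4 (-3.10) lie far to the left and most other points lie between -1 and 1.

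Because annexin A5 binds phosphatidylserine, genes of scramblases and flippases, which move this lipid between the faces of the membrane, were also listed. Of 12 tested, 2 were lower, 1 was higher and 9 were not called, near or below the 15.2 and 14.7% of all tested genes, with a median log2 fold change of -0.14. Limma on FPKM called 4 lower and 0 higher, with *Xkr8* and *Plscr1* added, and edgeR without optimized library 1 called 3 lower and 2 higher, with *Atp11a* and *Plscr3* added. *Atp8b4*, which encodes a flippase-type ATPase, had 3.39 to 4.77 CPM in controls and 0.255 to 0.677 CPM in the optimized libraries (log2 fold change -3.10, SE 0.33, adjusted p = 7.3e-05, edgeR quasi-likelihood test). It had 6 to 14 reads in the optimized libraries and passed the filter on low counts through the controls, where it is high. Its test values are thus a description, and 15 of 17 settings tested it. *Atp8a1*, another flippase gene, fell by 0.65 on the log2 scale (adjusted p = 0.0073, edgeR). *Tmem30a*, the gene of the subunit that flippases need to reach the cell surface, rose by 0.31 (adjusted p = 0.016, edgeR), a call that 10 of 17 settings gave and that was lost with library size alone as the scaling. *Ano6*, a scramblase gene, had a log2 fold change of -0.0059, and *Xkr8*, the scramblase gene of dying cells, -0.31 (adjusted p = 0.11, edgeR).

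All 7 of the S100 genes described here lie on chromosome 3, in 2 groups. Counted from the lower coordinate of *S100a13*, the lower coordinates of *S100a1*, *S100a4*, *S100a6*, *S100a8* and *S100a9* lie 2, 95, 104, 151 and 184 kb away in GRCm39, whatever the strand, and those of *S100a11* and *S100a10* at 2998 and 3046 kb. *S100a4* and *S100a6*, which fell, are separated from *S100a8*, which rose, by *S100a7a*, for which the controls had 0 reads and the optimized libraries 3, 2 and 2. In the distal pair *S100a10* fell and *S100a11* was not called, at a log2 fold change above 0. *Anxa5* lies on the same chromosome far from both groups.

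The direction of all 9 tested genes was the same under the other scalings, tools and filters, on FPKM and with any library left out. *Anxa1* kept log2 fold changes of -1.67 to -1.47 and *S100a4* of -1.21 to -0.89 over these settings, whereas *S100a1* ran from 0.11 to 0.61 and *Anxa2* from -0.46 to -0.18. *S100a11* was called in 0 of 17 settings, edgeR, DESeq2 and limma included, though its unadjusted p-value in edgeR was 0.042.

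**Figure D5:**
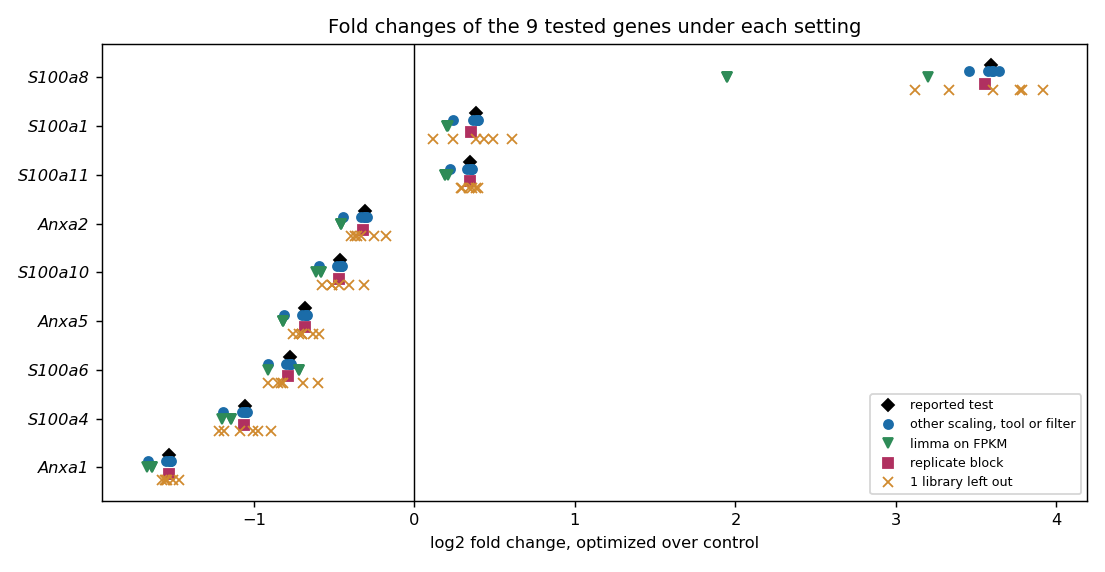
Log2 fold changes (x axis, optimized over control) of the 9 tested genes under the reported test (black), other scalings, tools and filters (blue), limma on FPKM (green), the replicate number as a term (red) and with 1 library left out (orange). No gene changed sign, and S100a8 spans 1.95 to 3.91.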

How the data were processed

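Microglial RNA was sequenced in 3 control and 3 optimized cultures, grouped by their sample labels. The authors used HISAT2 with the mm39 genome and featureCounts in Galaxy; versions, annotation and strand setting are not given in the sources used here. Raw counts were deposited by the authors, as were FPKM values, whose gene lengths are not given. Genes were filtered with filterByExpr and tested with edgeR 4.0.16 (R 4.3.3, TMM scaling, quasi-likelihood test, Benjamini-Hochberg adjustment over 14618 genes). DESeq2 1.42.0 and limma 3.58.1 on log2(FPKM + 1) or log2(FPKM + 0.1), other scalings and filters, and the omission of each library were the alternatives. Positions come from GENCODE on GRCm39 and upstream windows from RefSeq on GRCm38.p6. All 10 genes are named, and from each other list the 3 largest and 3 smallest called changes (for the microglial markers by name and direction, with 1 marker not reported here), plus *S100b*, *Fpr1*, *Fpr2*, *Ager* and *Tlr4*; other genes, such as those called only under an alternative, were named after their values were seen. The genes and lists were chosen with earlier results of these data known. Markers of other cell types were listed for microglia, astrocytes, neurons, oligodendrocytes, fibroblasts, neutrophils and monocytes.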

Additional observations from a re-analysis of the deposited data

How the results depend on the processing

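Over the 9 tested genes and all alternatives, 132 of 144 log2 fold changes kept their direction and their side of the threshold, 5 lost the call, 7 gained it and 0 reversed. The number of the 10 genes called was 6 as reported, 7 with library size alone or limma, 5 when at least 10 reads were required in every library, and 4 to 6 when 1 library was left out. The number past the study's cut-off was 2 as reported and 1 with at least 10 reads in every library, which removes *S100a8* from the test, and 1 to 2 when 1 library was left out, where *Anxa1* missed it without optimized library 1. With library size alone 32.3% of all calls were higher and with limma 28.4 to 31.3%, against 49.1% as reported, and limma called *Anxa2* (log2 fold change -0.46, adjusted p = 0.020 to 0.021). Whether the replicate numbers pair the libraries cannot be told from these values, which rest on 3 libraries per group. The same-numbered pairs had correlations of 0.273, -0.0123 and 0.185, and the first was the highest of all pairs. Control library 2 did not correlate best with its own number. Control library 3 had nearly equal correlations with optimized libraries 2 (0.189) and 3 (0.185). With the replicate number as a block, 2523 genes were lower and 2401 higher in edgeR, against 2218 and 2142 without it, and 8 of the 10 genes were called, *S100a1* (0.35, adjusted p = 0.044) and *Anxa2* (-0.32, adjusted p = 0.031) being gained. Leaving out 1 library gave 3249 to 5234 calls over all genes. The difference between groups in the log2 ratio of *S100a10* to *Anxa2* was -0.16 as reported, -0.19 to -0.11 when 1 library was left out, the same with FPKM, and had p = 0.25 in an exact sign-flip permutation test on same-numbered pairs. The ratio of *S100a8* to *S100a9* could not be computed because *S100a9* was at 0. Depth limits *S100a8*, with 2 to 6 control reads, and *S100a9*, at 0.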

Other observations

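Some S100 genes too low for the test were found in single libraries or groups, and are named here after their values were seen. *S100g*, which encodes the vitamin D-dependent calcium-binding protein calbindin-D9k, had 49 reads in optimized library 1 and 0 in each of the other libraries. The same library had 1534 reads of *Ltf*, the lactoferrin gene, against 1 to 3 elsewhere, and 54 reads of *Plac8* against 0 to 1. *S100a8*, by contrast, had 30 reads in that library, the same as in optimized library 3, and fewer than the 72 of optimized library 2.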
